A study of Mus musculus with 18 samples.

Results

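The 37 genes of the mouse mitochondrial genome were followed through axotomy in cultured sensory neurons. The members are all genes whose symbol in the GENCODE vM21 annotation starts with mt-, and they are 37 of the 47643 genes in the count tables. By annotated class they are 2 rRNA genes, 13 protein-coding genes and 22 tRNA genes. All of them lie on chromosome M, 28 on the heavy-strand transcript (annotated on the plus strand) and 9 on the light-strand transcript (8 tRNA genes and mt-Nd6, annotated on the minus strand).

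Mitochondria keep a small circular genome whose products serve the organelle alone. Its rRNAs and tRNAs build and feed the mitochondrial ribosome, and its mRNAs encode core subunits of respiratory complexes I, III, IV and V. Both strands are transcribed as long precursors, and the tRNAs that lie between the longer genes are cut out, which frees the mRNAs and rRNAs on either side. All other proteins of the organelle, including those that copy, transcribe and translate this genome, are encoded in the nucleus. In sensory neurons mitochondria also travel along the axon and supply it with ATP.

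Embryonic dorsal root ganglia were taken from CD-1 mice at e13.5, dissociated and plated as spots (eDRG spot culture), and all groups were treated with FDU, a mitotic inhibitor that removes dividing non-neuronal cells. The uninjured Control was collected at DIV7 (7 days in vitro). In the other groups the axons were cut with a blade at DIV7. These cultures were collected at 5 times, at 1, 3, 8, 16 and 24 hours post injury (HPI). Each of the 6 groups had 3 libraries, and none was genetically altered. Control was the only uninjured group, so injury and added time in culture cannot be told apart in comparisons with Control. Total RNA was depleted of rRNA with Ribo-Zero Gold, a kit whose probes also target mitochondrial rRNA. Counts on genes ran from 9478891 (8 HPI replicate 2) to 23082327 (3 HPI replicate 2) per library. The sensory neuron markers Prph, Avil, Isl1, Pou4f1 and Tubb3 had medians of 72.6 to 4154 CPM (counts scaled to the library's total on genes), while the highest value of any of 17 satellite glia, Schwann cell, myeloid, endothelial and fibroblast markers in any library was 5.88 CPM (Col1a2). The library 16 HPI replicate 1 stood apart in the rRNA-derived gene Gm23935, with 121676 counts. It was followed by 3 HPI replicate 3 with 41528, and any other library had at most 4263. Summed over a list of residual rRNA genes, 16 HPI replicate 1 was again highest with 21503 CPM. Next came 16 HPI replicate 2 with 12885 CPM, while 3 HPI replicate 3 had 8870 CPM and no other library exceeded 10160 CPM.

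The sequences below are of members with many and with few counts, shown for their neighbours and their nuclear copies. They were read from the GENCODE vM21 transcripts (GRCm38) and are written 5′ to 3′. The first is mt-Tp, the proline tRNA at chrM:15356-15422 on the minus strand, the one tRNA member with more than 9 counts in total, with its anticodon in capitals as the centre of the single 7-base loop that RNAfold predicted. Its neighbour mt-Tt, the threonine tRNA at chrM:15289-15355 on the plus strand, had 0 counts in all 18 libraries.
mt-Tp: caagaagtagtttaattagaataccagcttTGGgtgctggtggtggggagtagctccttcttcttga
mt-Tt: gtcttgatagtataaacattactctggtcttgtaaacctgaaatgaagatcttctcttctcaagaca

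The next pair sets the first 100 bases of mt-Co3 (chrM:8607-8706, plus strand), which encodes subunit 3 of complex IV, beside the annotated nuclear pseudogene Gm28437 (chr1:24613872-24613971, minus strand). No position differs, so no letter is in capitals.
mt-Co3: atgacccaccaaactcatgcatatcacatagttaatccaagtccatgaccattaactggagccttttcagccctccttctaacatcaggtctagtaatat
Gm28437: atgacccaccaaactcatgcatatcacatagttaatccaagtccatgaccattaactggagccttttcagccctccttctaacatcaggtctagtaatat

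The last pair sets 100 bases of mt-Nd5 (chrM:12447-12546, plus strand), a complex I subunit, beside the pseudogene Gm4076 (chr13:85127415-85127514, minus strand). Here 6 positions differ and are in capitals.
mt-Nd5: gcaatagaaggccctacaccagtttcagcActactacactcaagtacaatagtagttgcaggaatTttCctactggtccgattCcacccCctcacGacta
Gm4076: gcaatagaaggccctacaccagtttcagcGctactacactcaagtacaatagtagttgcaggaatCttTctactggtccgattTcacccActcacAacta

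The rRNAs dominated what was counted from the mitochondrial genome. mt-Rnr1 (12S, the small ribosomal subunit) and mt-Rnr2 (16S, the large subunit) together took between 12.9% (Control replicate 3) and 21.0% (24 HPI replicate 1) of all counts on genes. The 13 protein-coding members took 1.91% to 3.08%, and the 22 tRNA members at most 0.00375%. Because the RNA had been depleted of rRNA, the rRNA share describes what remained in the libraries, and the amount in the cells cannot be told apart from the efficiency of depletion. In bulk cultures, fewer cells of a type and less RNA per cell cannot be told apart either.

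Levels per length spread over 5 orders of magnitude among the rRNA and protein-coding members of the heavy-strand transcript, with its tRNA members left aside. The upper end is rRNA left after depletion, and the lower end is mostly genes with exact nuclear copies, described below. Of the members ranked here, mt-Nd6 and mt-Tp lie on the light-strand transcript. On the RPKM scale (CPM per kilobase of exon), medians over the 18 libraries were 84005 for mt-Rnr2 and 19338 for mt-Rnr1, and their ranges did not overlap. The mRNAs followed with 5617 for mt-Co1, 4143 for mt-Nd1, 2951 for mt-Cytb, 2887 for mt-Nd2, 1583 for mt-Nd4, 1557 for mt-Nd5 and 962 for mt-Nd6. Neighbours in this order overlapped in their ranges over libraries, except that mt-Rnr1 lay above mt-Co1 and mt-Nd2 (lowest 2238) above mt-Nd4 (highest 2012) without overlap. The median of mt-Tp was 256 RPKM, and all its libraries (122 to 560) lay below the lowest mt-Nd6 library (722).

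**Figure D1:**
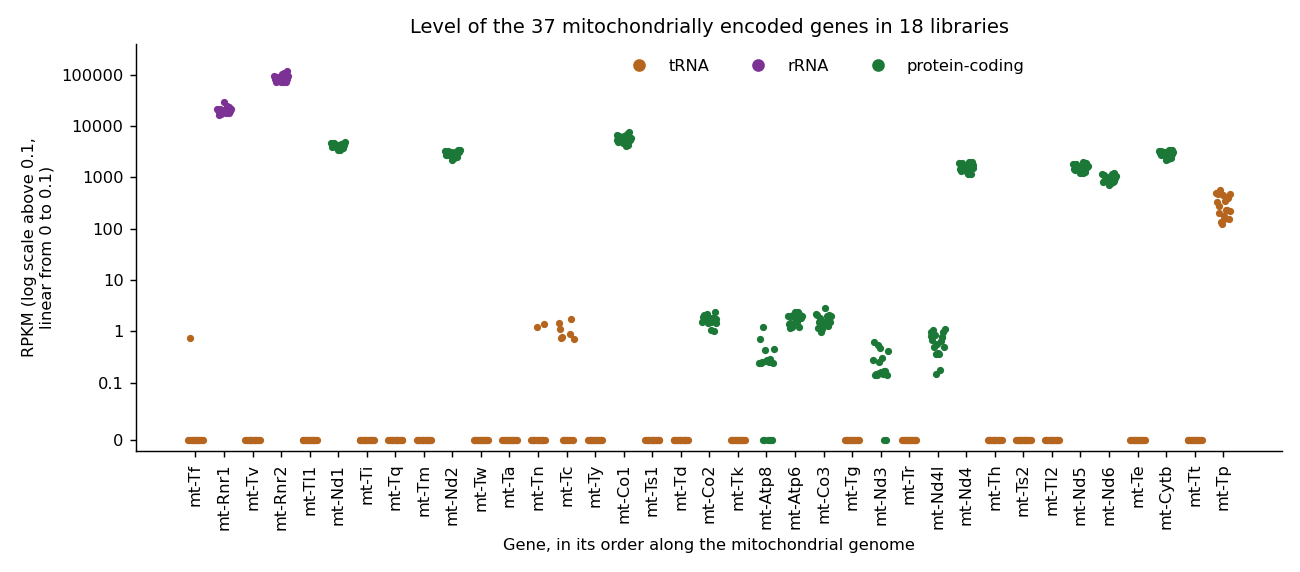
RPKM of each of the 37 members in each of the 18 libraries (points), with the genes in their order along the mitochondrial genome and the vertical axis linear from 0 to 0.1 and logarithmic above. The run of protein-coding genes from mt-Co2 to mt-Nd4l sits at 0 to 2.83 RPKM between mt-Co1 and mt-Nd4, which are above 1000 RPKM in every library, and 18 tRNA genes are at 0 throughout.

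A run of 6 protein-coding members was almost absent from the counts, and these lie next to each other. mt-Co2, mt-Atp8, mt-Atp6, mt-Co3, mt-Nd3 and mt-Nd4l occupy chrM:7013-10173 together with 3 tRNA genes. Their median levels were 1.78, 0.251, 1.85, 1.54, 0.166 and 0.664 RPKM, and no library had more than 35 counts for any of them. Flanking them, mt-Co1 had at least 81412 counts and mt-Nd4 at least 21100 in every library. mt-Nd4l and mt-Nd4 are translated from one bicistronic mRNA, and so are mt-Atp8 and mt-Atp6, so the counts of mt-Nd4l (1 to 7) and mt-Nd4 (21100 to 54761) differ between 2 reading frames of the same molecule.

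Exact copies in the nuclear annotation followed nearly the same borders. Every window of 100 bases in each member was looked up in all annotated nuclear transcripts, and a window counted as shared where it occurred letter for letter. The share was 99.5% for mt-Co2, 99.5% for mt-Atp6, 99.9% for mt-Co3, 97.6% for mt-Nd3 and 98.5% for mt-Nd4l, with pseudogenes in a row on chromosome 1 as the partners. Aligned without gaps, mt-Co2 and Gm28661 were identical at all 681 aligned bases, mt-Atp6 and Gm10925 at 678, mt-Co3 and Gm28437 at 783, and mt-Nd4l and Gm10222 at 294, while mt-Nd3 and Gm28438 differed at 1 of 345. The members with high levels shared less: 60.8% of windows for mt-Nd4 (Gm28439), 30.8% for mt-Co1 (Gm29216), 3.19% for mt-Nd2 (Gm13339, chromosome 2), and none for mt-Rnr1, mt-Rnr2, mt-Nd1, mt-Nd5, mt-Nd6 and mt-Cytb.

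mt-Atp8, which encodes a small subunit of ATP synthase, was the exception. No window of it matched an annotated nuclear transcript, yet it had 0 to 5 counts per library. It lies between mt-Co2 and mt-Atp6, whose copies Gm28661 and Gm10925 leave an unannotated gap on chromosome 1, and unannotated genome sequence was not searched here. Its last bases also overlap with mt-Atp6 on the same strand.

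**Figure D2:**
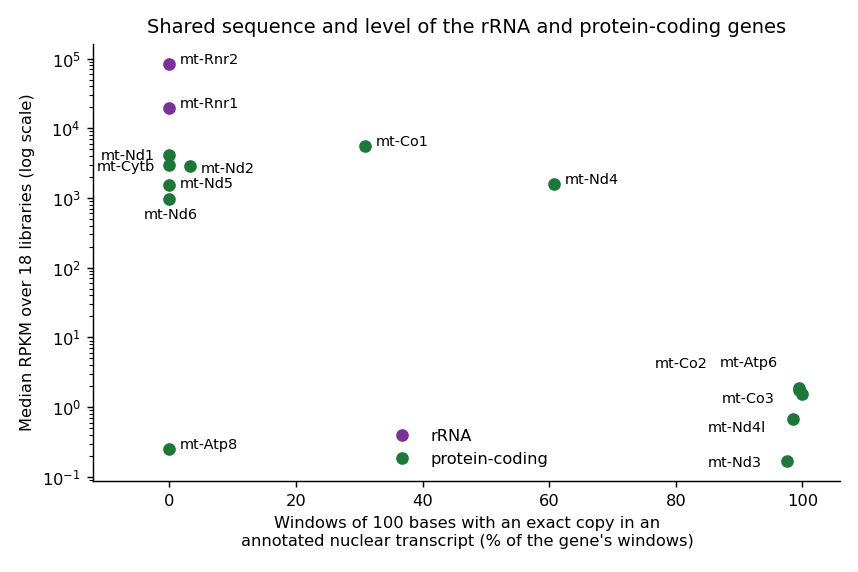
Share of 100-base windows with an exact copy in an annotated nuclear transcript (horizontal axis, %) against the median RPKM over 18 libraries (vertical axis, log scale) for the 2 rRNA and 13 protein-coding members, 1 point per gene. The 5 genes at 97.6% or more lie at 1.85 RPKM or below, mt-Atp8 lies at 0% and 0.251 RPKM, and all others lie at 962 RPKM or above.

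Reads that aligned to several places were entered apart from the genes. They made up 14.7% to 19.8% of all entries per library, and how many of them came from the mitochondrial genome was not tested. The pseudogenes themselves were also low, with a median of 17 counts per library for Gm28661, 26 for Gm10925, 18 for Gm28437 and 6 for Gm10222. Gm28438, which differs from mt-Nd3 at 1 base, was highest among the chromosome 1 copies with a median of 101 counts (48 to 144). Scaled to the windows without a copy, the median level of mt-Nd4 was 4346 CPM per 1000 windows and that of mt-Co1 8678, against 4621 for mt-Nd1, 3231 for mt-Cytb and 1646 for mt-Nd5, a scaling chosen after the values were seen. So per unshared window mt-Nd4 stood near mt-Nd1, although per kilobase of gene it was at 1583 against 4143 RPKM. The scaling takes no account of read pairs with only 1 read inside a copy, so it may overstate the levels of mt-Nd4 and mt-Co1.

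The tRNA genes split by their neighbours. Their annotated lengths are 59 to 75 bases, shorter than 1 sequenced read. Of the 22, 18 had 0 counts in all 18 libraries, and those were exactly the 18 that have another mitochondrial gene within 5 bases on both sides (a count of 0 allows up to 3 counts in a library). Of the other 4, mt-Tf (phenylalanine), which borders the control region on the other side, had 1 count in total in 1 library. mt-Tn (asparagine) had 4 counts in 2 libraries and mt-Tc (cysteine) 9 counts in 7 libraries, and these genes face each other across a gap of 32 bases. mt-Tp, beyond which the annotation holds no gene, had 6625 counts, between 100 and 694 per library.

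After filtering for over 1 CPM in at least 3 libraries, 13 members were tested among 13771 genes: both rRNAs, 10 protein-coding members and mt-Tp. The tested set leaves out 21 tRNA members, mt-Atp8, mt-Nd3 and mt-Nd4l. mt-Co2, mt-Atp6 and mt-Co3 passed with 7 to 35 counts per library, so their fold changes carry standard errors of 0.25 to 0.30 on the log2 scale, against 0.09 to 0.11 for the 7 abundant mRNAs. Whether any member changed after axotomy was asked with a model that held the 6 groups and the replicate number, since libraries with the same number deviated together.

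Of the 13 tested members, mt-Tp was the only one called at any time against Control, and it was called lower (adjusted p under 0.05). At 1 HPI no member was called in the edgeR fit, where 0.276% of all tested genes were, and DESeq2 called none either. There 1 of 13 members had an unadjusted p under 0.05, beside 1768 of all 13771 genes. The count was 1 of 13 at 3 HPI, where 0.189% of all tested genes were called, and 1 of 13 at 8 HPI, where 7.68% were. It was again 1 of 13 at 16 HPI against 22.2% of all genes, and 1 of 13 at 24 HPI against 15% of all genes. With any difference among the 6 groups as the question, 1 of 13 members was called, against 30% of all genes.

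The mature tRNA of mt-Tp carries proline to the mitochondrial ribosome, and the gene lies at the border of the control region, the stretch that holds the promoters. Whether counts on this gene came from the mature tRNA or from longer RNA running through it was not tested. In Control mt-Tp had 34.0, 22.4 and 31.8 CPM in replicates 1, 2 and 3. It had 18.9, 13.9 and 37.5 CPM at 1 HPI and 9.10, 8.19 and 30.2 CPM at 3 HPI. At 3 HPI, replicates 1 and 2 thus lay below every Control library, while replicate 3 lay within the Control range.

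The later groups kept this split between the numbers. At 8 HPI mt-Tp had 11.6, 10.5 and 23.3 CPM, at 16 HPI 15.4, 15.4 and 26.1 CPM, and at 24 HPI 10.6, 14.8 and 31.4 CPM. Replicate 3 was the highest library of every injured group, and each of the 5 injured groups overlapped with Control. Replicate 3 libraries also differed in counts outside genes, with 9.23% to 13.3% of all entries on no annotated feature against 6.57% to 10.7% in replicates 1 and 2, and the part of this in the mt-Tp values was not tested.

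Measured against the Control of its own replicate number, mt-Tp was lower in 14 of 15 injured libraries. In log2 of the CPM ratio, the values of replicates 1, 2 and 3 were -0.85, -0.69 and 0.24 at 1 HPI, -1.90, -1.45 and -0.08 at 3 HPI, and -1.55, -1.09 and -0.45 at 8 HPI. They were -1.14, -0.54 and -0.28 at 16 HPI and -1.68, -0.60 and -0.02 at 24 HPI. At each time the value was lowest in replicate 1 and highest in replicate 3, where it came close to 0 at 3 and 24 HPI.

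**Figure D3:**
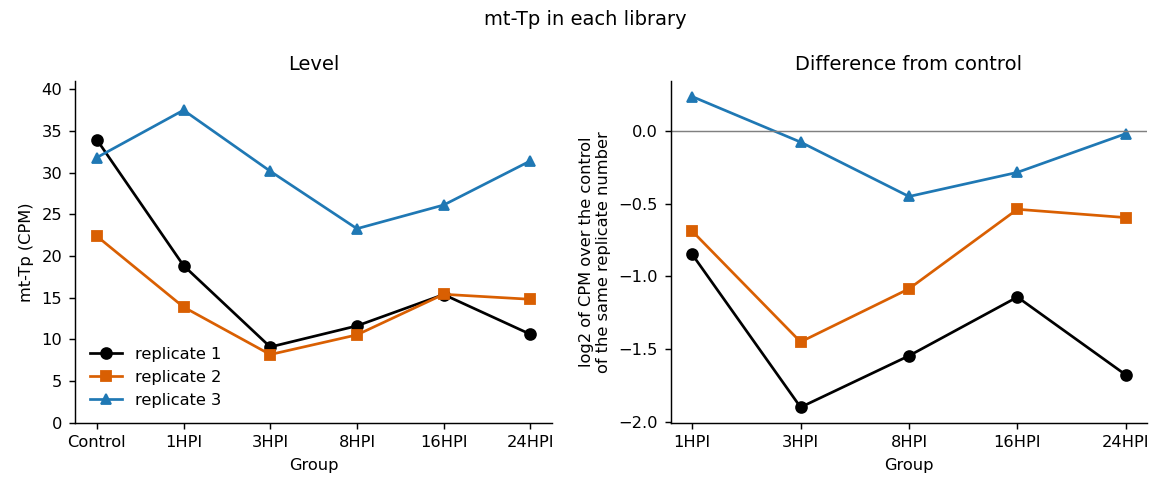
mt-Tp in each library: left, CPM by group; right, log2 of the CPM over that of the Control with the same replicate number, with 1 line and marker per replicate number. Replicates 1 and 2 are at 8.19 to 18.9 CPM in all injured groups against 34.0 and 22.4 in Control, whereas replicate 3 stays between 23.3 and 37.5 CPM.

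The fitted fold changes of mt-Tp gave a log2 fold change of -0.45 (SE 0.21, adjusted p = 0.382) at 1 HPI, -1.07 (SE 0.22, adjusted p = 0.0494) at 3 HPI and -1.04 (SE 0.23, adjusted p = 0.00833) at 8 HPI in edgeR. At 16 HPI the value was -0.72 (SE 0.22, adjusted p = 0.0224) and at 24 HPI -0.74 (SE 0.22, adjusted p = 0.0239). At 3 HPI mt-Tp was the only 1 of 13771 genes (0.00726%) that was called and over 2-fold lower. At 8 HPI it was 1 of 39 such genes (0.283%). In this fit mt-Tp did not differ beyond error between 8 and 16 HPI (0.33, adjusted p = 0.406, 95% interval -0.15 to 0.80). The same held between 16 and 24 HPI (-0.02, adjusted p = 0.970, 95% interval -0.47 to 0.42). Of 26 alternatives, 1 called mt-Tp higher at 16 than at 8 HPI, with these 2 groups fitted alone (0.31, SE 0.10, adjusted p = 0.04045).

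The calls of mt-Tp against Control rest on the replicate term and on single libraries. Without the replicate block, adjusted p for 3, 8, 16 and 24 HPI was 1.00, 0.637, 0.540 and 0.654, with log2 fold changes of -0.93, -0.95, -0.67 and -0.66. Without Control replicate 1, the highest Control library, the values shrank to -0.71, -0.68, -0.36 and -0.39 and no call was left (adjusted p = 0.0992, 0.0729, 0.266 and 0.237). Without Control replicate 2, the 8 HPI call alone was left (-1.01, adjusted p = 0.0279). Without 3 HPI replicate 3, a library high in Gm23935, the 3 HPI value was -1.49 (adjusted p = 0.0103). Without 3 HPI replicate 1 or replicate 2, the 3 HPI value was -0.87 or -0.92 and not called (adjusted p = 0.0818 and 0.266). Without replicate 1 in any group, no time was called, with values of -0.62, -0.74, -0.47 and -0.29 (adjusted p = 0.162, 0.0965, 0.179 and 0.441). Without replicate 2 in any group, none was called either, with -0.92, -1.02, -0.77 and -0.77 (adjusted p = 0.602, 0.0577, 0.0812 and 0.105). Without replicate 3 in any group, all 5 times were called, with -0.81 at 1 HPI (adjusted p = 0.0351) and -1.74 at 3 HPI (adjusted p = 3.48e-05).

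Since mt-Tp makes up nearly all tRNA counts, the tRNA share of counts on genes repeats its values and does not describe the other tRNAs. The tRNA share was 0.00295% ± 0.000618 (SD, n = 3) in Control and 0.00159% ± 0.00124 at 3 HPI. Over the 15 injured libraries against the 3 Controls, with labels exchanged within replicate numbers only, the log2 difference was -0.81 (exact two-sided permutation p = 0.00926, adjusted over the 6 shares and ratios 0.0417, smallest possible p 0.00463). Relative to the protein-coding members the difference was -0.78 (exact permutation p = 0.0139, adjusted 0.0417). A difference among all 6 groups did not pass the correction for the tRNA share (permutation p = 0.0176, adjusted 0.106).

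The rRNAs showed no called difference from Control. mt-Rnr2 had 149296, 133271 and 113172 CPM in Control replicates 1, 2 and 3, 141798, 140580 and 120499 at 1 HPI, and 130782, 135278 and 114652 at 3 HPI. It had 164701, 132521 and 112653 CPM at 8 HPI, 171215, 127255 and 114243 at 16 HPI, and 187914, 130580 and 150740 at 24 HPI. The groups overlapped throughout, and in every group but 3 HPI and 24 HPI the order of the replicate numbers was that of Control. Its largest fitted difference from Control was 0.24 on the log2 scale at 24 HPI (SE 0.10, adjusted p = 0.114), and without 24 HPI replicate 2 it was 0.38 and called (adjusted p = 0.0106).

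mt-Rnr1 had 20194, 19554 and 16020 CPM in Control, 18235, 20235 and 16383 at 1 HPI, and 17125, 18320 and 28540 at 3 HPI. It had 19776, 18006 and 17324 CPM at 8 HPI, 23522, 18236 and 17559 at 16 HPI, and 22139, 18615 and 20548 at 24 HPI. The 28540 CPM of 3 HPI replicate 3 was its highest value, 0.83 on the log2 scale above the Control of that number, where mt-Rnr2 was 0.02 above it. The ratio of mt-Rnr1 to mt-Rnr2 was 0.249 in that library and 0.118 to 0.154 in the other 17. The same library had 41528 counts for Gm23935, and the part of rRNA depletion in this was not tested.

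Neither the rRNA share nor its ratio to the mRNAs moved beyond error. The rRNA share was 15.1% ± 2.02 (SD, n = 3) in Control and ran over groups from 14.8% ± 0.521 at 3 HPI to 17.7% ± 3.08 at 24 HPI (permutation p = 0.394 among the 6 groups, adjusted 0.473). Counts on the rRNAs per count on the protein-coding members were 6.05 ± 0.388 in Control, 6.83 ± 0.702 at 8 HPI and 6.44 ± 0.352 at 24 HPI (permutation p = 0.351, adjusted 0.473). The share of the protein-coding members was 2.49% ± 0.325 in Control, lowest at 8 HPI with 2.27% ± 0.308 and highest at 24 HPI with 2.74% ± 0.325 (permutation p = 0.156, adjusted 0.312).

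**Figure D4:**
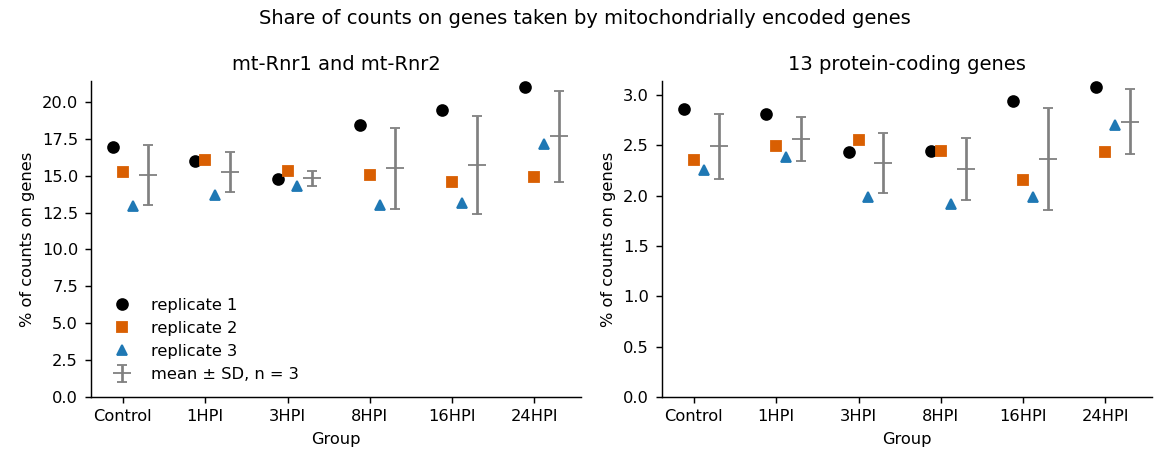
Share of counts on genes taken by both rRNAs (left) and by the 13 protein-coding members (right), in % on axes that start at 0, with a marker for each library by replicate number and grey bars for the mean ± SD of 3 libraries. The rRNA share lies between 12.9% and 21.0% and the protein-coding share between 1.91% and 3.08%, and every injured group overlaps with Control.

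Among the mRNAs, those of complex I carry 7 of the 13 reading frames. mt-Nd1, which encodes a membrane subunit of complex I, had 4517, 3755 and 4023 CPM in Control and 4427, 3907 and 4077 at 1 HPI. It had 3721, 4199 and 3245 CPM at 3 HPI, 3590, 3873 and 3270 at 8 HPI, 4323, 3604 and 3555 at 16 HPI, and 4587, 4057 and 4759 at 24 HPI. The groups overlapped with Control, and its test among the 6 groups gave an adjusted p = 0.0793 (unadjusted 0.0280), the lowest of the protein-coding members. Against Control its log2 fold change ran from -0.19 at 8 HPI (SE 0.09, adjusted p = 0.242) to 0.12 at 24 HPI (SE 0.09, adjusted p = 0.419). Without replicate 2 in any group, the 8 HPI difference was -0.30 and called (adjusted p = 0.0497).

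mt-Nd2 encodes another membrane subunit of complex I. It had 3411, 2786 and 2848 CPM in Control and 3402, 2955 and 3086 at 1 HPI. At 3 HPI it had 2893, 3292 and 2323 CPM, at 8 HPI 2670, 3038 and 2494, at 16 HPI 3292, 2570 and 2575, and at 24 HPI 3545, 3209 and 3552. The 24 HPI values overlapped with Control, while all 3 were higher than the Control of their own number. The fitted difference at 24 HPI was 0.19 (SE 0.10, adjusted p = 0.243), and it was called only where Control and 24 HPI were fitted alone (0.18, adjusted p = 0.0390).

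mt-Nd6 is the one mRNA of the light strand and encodes a further membrane subunit of complex I. It had 602, 428 and 433 CPM in Control and 593, 467 and 485 at 1 HPI. At 3 HPI it had 501, 509 and 375 CPM, at 8 HPI 540, 497 and 402, at 16 HPI 594, 422 and 438, and at 24 HPI 624, 516 and 564. All 3 libraries at 24 HPI were above the Control of their own number, by 0.05, 0.27 and 0.38 on the log2 scale. The fitted difference was 0.23 (SE 0.10, adjusted p = 0.119), and with Control and 24 HPI fitted alone it was called (0.22, adjusted p = 0.00414). The ends of mt-Nd6 and mt-Nd5 overlap on opposite strands, and whether counting used strand is not given in the sources used here.

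The other abundant mRNAs stayed within the same limits. mt-Cytb, the mitochondrial subunit of complex III, had its lowest log2 fold change at 3 HPI with -0.20 (SE 0.11, adjusted p = 0.403). At 16 HPI it was -0.16 (adjusted p = 0.304), but -0.35 and called without 16 HPI replicate 1 (adjusted p = 0.0118), the library with the most Gm23935 counts. mt-Co1, the catalytic subunit of complex IV, ran from -0.09 at 16 HPI to 0.15 at 24 HPI, and mt-Nd4 and mt-Nd5, both of complex I, from -0.11 and -0.12 at 8 HPI to 0.16 and 0.13 at 24 HPI. The fitted differences of all 7 abundant mRNAs were below 0 at 3, 8 and 16 HPI and above 0 at 1 and 24 HPI, while of all tested genes 49.3%, 50%, 50.3%, 50.5% and 49.6% were below 0 in the 5 comparisons in order of time. Under each of the 3 other scalings this held at 3, 8, 16 and 24 HPI, while at 1 HPI 1 of the 7 turned below 0 under DESeq2's size factors and under library sizes without mitochondrial and residual rRNA genes. With the filter of at least 10 counts over all libraries, 6 of the 7 were below 0 at 3 HPI. Leaving out libraries or replicate numbers also turned signs. Of 29 alternatives of any kind, mt-Nd6 at 8 HPI had the other sign in 5, mt-Nd4 at 3 HPI and mt-Nd5 at 16 HPI in 4 each, and mt-Cytb at 1 HPI in 15. Against the Control of the same number the signs were mixed. Replicate 2 was above it for all 7 at 3 HPI (0.05 to 0.25 on the log2 scale) and for 6 of the 7 at 8 HPI, and replicate 1 was below it for 6 of the 7 at 1 HPI. The fitted medians were 0.05, -0.10, -0.12, -0.09 and 0.15 in the same order, and since the 7 share their precursors and their libraries, they are not 7 separate observations.

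The ratio between members annotated on the light and on the heavy strand did not pass the test. The light-strand counts were mostly of mt-Nd6, with 162251 in total against 6625 for mt-Tp. The heavy-strand counts were mostly of rRNA left after depletion, with 44446520 for mt-Rnr2 against 2840497 for mt-Co1, the highest mRNA. Members were grouped by annotation, and the strand of the reads is not given in the sources used here. Counts on light-strand members per 1000 counts on heavy-strand members were 2.95 ± 0.347 (SD, n = 3) in Control and between 2.78 ± 0.258 (3 HPI) and 3.04 ± 0.382 (1 HPI) in the injured groups (permutation p = 0.868, adjusted 0.868). mt-Nd6 relative to the other protein-coding members, a ratio chosen after the values were seen, was 0.0199 ± 0.00152 in Control and 0.0202 to 0.0216 in the injured groups (permutation p = 0.328).

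**Figure D5:**
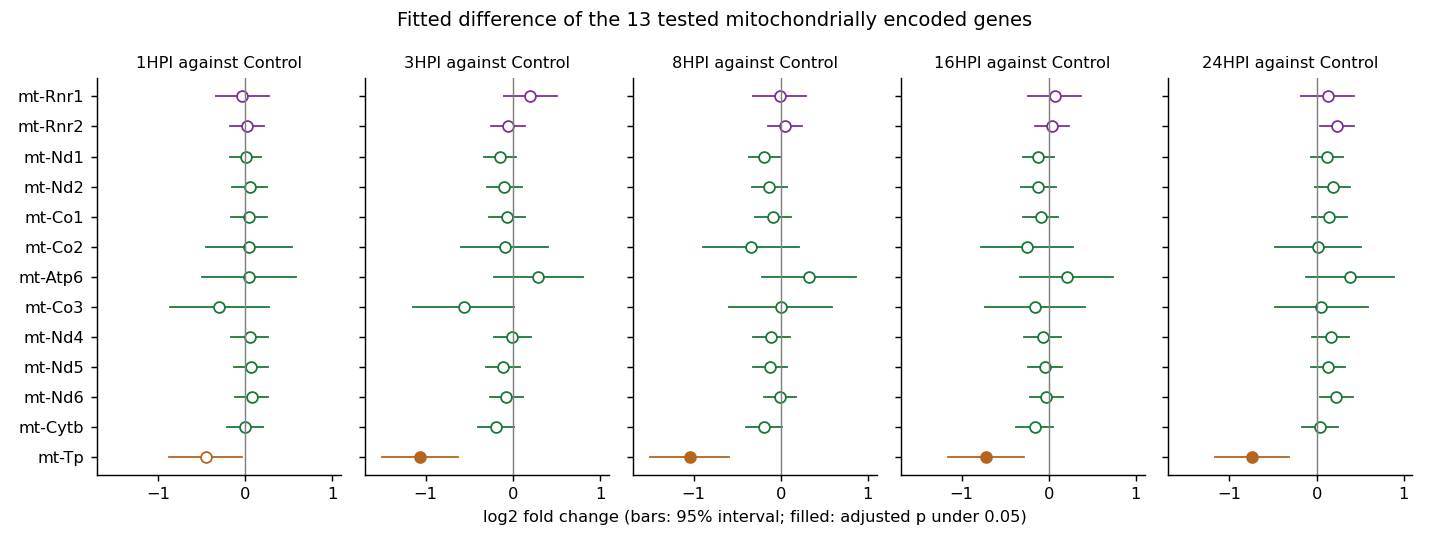
Log2 fold change against Control of the 13 tested members at each time (points, with bars for the 95% interval and filled points where the adjusted p is under 0.05; purple rRNA, green protein-coding, brown tRNA). mt-Tp is the one member with filled points, in the 4 panels from 3 HPI on, and the abundant mRNAs lie between -0.20 and 0.23.

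Between successive times, the mRNAs were higher at 24 than at 16 HPI by amounts that fell short of the threshold. No member was called in the edgeR fit, where 9.82% of all genes were, and DESeq2 called none either. An unadjusted p under 0.05 was seen for 5 of 13 members, beside 3280 of all 13771 genes. The 7 abundant mRNAs ran from 0.17 (mt-Nd5, adjusted p = 0.313) to 0.31 (mt-Nd2, SE 0.10, adjusted p = 0.0659) on the log2 scale. Without 16 HPI replicate 1, the library with the most Gm23935 counts, all 7 were called. The values were then 0.35 for mt-Nd1 (adjusted p = 0.0316) and 0.44 for mt-Nd2 (adjusted p = 0.0134). Without 24 HPI replicate 2 there were 5 called members. The share of all genes called in these fits with a library left out is not given here. Between 8 and 16 HPI no member was called in the edgeR fit of all groups, where 15.2% of all genes were, and DESeq2 called none. In that fit no member had an unadjusted p under 0.05, beside 4009 of all 13771 genes.

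The nuclear genes that serve this genome were rarely called either. Of 83 tested genes for mitochondrial DNA transcription and replication, RNA processing and decay, tRNA and rRNA modification and aminoacyl-tRNA synthetases, the edgeR fit called 1 at 8 HPI (1.20%, against 7.68% of all genes). It called 6 of them at 16 HPI (7.23%, against 22.2%) and 6 at 24 HPI (7.23%, against 15%). None was called at 1 or 3 HPI in edgeR, where 3 and 8 had an unadjusted p under 0.05, beside 1768 and 1999 of all 13771 genes. Of 77 tested nuclear subunits of complexes I, III, IV and V, the numbers called were 2, 1 and 2 in the 3 later groups (2.60%, 1.30% and 2.60%). None of the 77 was called at 1 or 3 HPI, where 4 and 16 had an unadjusted p under 0.05. The medians of the log2 fold changes stayed between -0.02 and 0.08 in both groups of lists, beside medians of all genes within 0.003 of 0 in these 5 comparisons.

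Apart from Lars2, the called genes of the first set differed by at most 0.40 on the log2 scale. Tfam, which packages mitochondrial DNA and starts its transcription, rose by 0.23 on the log2 scale at 8 HPI (SE 0.06, adjusted p = 0.0308) and 0.21 at 16 HPI (adjusted p = 0.0221). Grsf1, an RNA-binding protein of mitochondrial RNA granules, rose by 0.32 at 16 HPI (SE 0.05, adjusted p = 6.39e-05) and 0.28 at 24 HPI (adjusted p = 0.000650). Lrpprc, which stabilises mitochondrial mRNAs, fell by 0.15 at 24 HPI (SE 0.05, adjusted p = 0.0329), and Mterf2 and Mterf4, of the mitochondrial transcription termination factor family, rose there by 0.40 (adjusted p = 0.0236) and 0.34 (adjusted p = 0.0149).

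Genes that act on the tRNAs and rRNAs also appear among the calls. Mrm1, an rRNA methyltransferase, rose by 0.23 at 16 HPI and 0.29 at 24 HPI (adjusted p = 0.00288), and Nsun3, which modifies the methionine tRNA, rose by 0.35 at 24 HPI (adjusted p = 0.00502). Mto1, a tRNA modifying enzyme, fell by 0.39 at 16 HPI (adjusted p = 0.0220). Mars2, the methionyl-tRNA synthetase, rose by 0.25 at 16 HPI (adjusted p = 0.00342). Lars2, the leucyl-tRNA synthetase, was called higher at 16 HPI with 6.08 (SE 1.24, adjusted p = 0.00113), with 4095, 4692 and 58.9 CPM in replicates 1, 2 and 3, against 26.1 to 72.2 CPM in Control. Lars2 also stands on the list of residual rRNA genes used here. Others on that list differed in pattern. Gm23935 was at 7901 CPM in 16 HPI replicate 1 but at 48.2 CPM in replicate 2. Gm15564 was at 93.4, 325 and 1.52 CPM in 16 HPI replicates 1, 2 and 3, against 1.20 to 11.9 CPM in Control. Gm26917 was at 9414, 7820 and 9868 CPM in these 16 HPI libraries. Whether the Lars2 counts came from rRNA was not tested.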

How the data were processed

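The deposited values are raw counts per gene that the authors made from paired reads, trimmed with cutadapt, aligned to mm10 with STAR and counted on GENCODE genes. The submitters' processing notes name HTSeq and the paper featureCounts, and the 5 closing entries of each file are those HTSeq writes. Strand setting is not given in the sources used here. Gene names, classes and positions are from GENCODE vM21, whose version numbers all 37 member identifiers carry (47224 of 47643 identifiers were named).

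Levels are CPM over counts on genes and RPKM over exon length. Genes with over 1 CPM in at least 3 libraries were fitted with edgeR 4.0.16 (TMM, quasi-likelihood test, R 4.3.3) with group and replicate number as terms over all 18 libraries, and p-values were Benjamini-Hochberg adjusted over all 13771 genes. Deviations of same-numbered libraries from their group means correlated with r = 0.619 on average (0.484 to 0.765, 45 pairs), so the number was treated as a pairing. In the sources used here nothing states that the libraries of a group came from separate cultures, so p-values measure the spread between these libraries. On counts simulated with the dispersions of this fit, 95 of 100 genes changed 1.5-fold and 100 of 100 changed 3-fold were recovered. There were 6 calls among 13571 unchanged genes. The replicate effect was set and not taken from the data, so this recovery does not describe genes such as mt-Tp, whose replicates differed widely. Shares and ratios were tested by permutation within replicate numbers (exact over 216 arrangements for injured against Control, 100000 draws among groups). DESeq2 1.42.0 was an alternative.

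The members and lists were chosen with earlier results of these data known. Values in every library are given for both rRNAs, the 3 protein-coding members with the smallest p among groups, tRNAs and members called with over 2-fold. Plotted intervals are 1.96 SE of the fit and hold the spread between libraries, while the limit that a count of 0 allows covers counting error only.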

Additional observations from a re-analysis of the deposited data

How the results depend on the processing

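The alternatives were other scaling factors, library sizes without mitochondrial and residual rRNA genes, DESeq2, other filters, no replicate block, the 2 compared groups alone (not applicable to the test among 6 groups), each library left out in turn and each replicate number left out, which for the tests of genes was added after the data were seen. mt-Tp kept its direction against Control in all of them and its call in 11 of 26 alternatives (those added later left out) for 3 HPI, 23 for 8 HPI, 21 for 16 HPI and 21 for 24 HPI.

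Without the replicate block, 0 members were called in any comparison, the one among 6 groups included, where the main count was 1 for 3, 8, 16 and 24 HPI against Control and for the 6 groups. For the tRNA share this gave a permutation p of 0.430 among groups and left the injured libraries at -0.81 (exact permutation p = 0.0809), and for its ratio to the mRNAs -0.78 (exact permutation p = 0.126). With the labels within numbers, both had passed.

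Upper-quartile factors and the 2 groups alone gave 0 calls for 3 HPI, and DESeq2 gave 0 for 16 HPI and 0 for 24 HPI. Upper-quartile factors gave 2 calls among the 6 groups. The 2 groups alone gave 3 calls for 24 HPI against Control, 1 for 16 against 8 HPI and 4 for 24 against 16 HPI. The filter of at least 10 counts over all libraries gave 1 call for 24 against 16 HPI and 3 among the 6 groups.

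With libraries or whole numbers left out, the calls ran from 0 to 1 for 1 HPI, 3 HPI and 8 HPI, from 0 to 2 for 16 HPI and 24 HPI, from 0 to 7 for 24 against 16 HPI (7 without 16 HPI replicate 1) and from 0 to 6 among the 6 groups (6 without 16 HPI replicate 1 or replicate 2, 0 without replicate 1). With a replicate number left out, the injured difference ran from -1.15 to -0.50 for the tRNA share and from -1.13 to -0.49 for its ratio to the mRNAs. Neither then passed the correction: without replicates 1, 2 and 3 in turn, exact permutation p was 0.111, 0.0556 and 0.0278 for the share (adjusted 0.50, 0.25 and 0.0833) and 0.167, 0.0833 and 0.0278 for the ratio (adjusted 0.50, 0.25 and 0.0833), and 0.0278 is the smallest that 2 numbers allow. Among the 6 groups, permutation p then ran from 0.0192 to 0.274 for the tRNA share, from 0.0494 to 0.609 for its ratio and from 0.0495 to 0.896 for the protein-coding share. The cause of these changes was not tested, beyond the smaller number of libraries. The tested members under 36 counts (mt-Co2, mt-Atp6, mt-Co3) had log2 standard errors of 0.25 to 0.30, so small differences could not be detected. How large a difference was detectable for them was not computed. For the 24 members outside the test, a difference was not assessed at these counts.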
